A study of Mus musculus with 33 samples.

Results

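CD8 T cells sorted from mouse pancreatic tumours treated with stereotactic body radiotherapy (SBRT) plus interleukin 12 (IL-12) were compared with CD8 T cells from unirradiated tumours. The comparison holds every gene name in the authors' deposited table, 53735 in all, and rests on 6 of the 33 libraries of the series, 3 from the combination and 3 from unirradiated tumours. All mice were C57BL/6 and carried tumours grown from 100000 KCKO cells, a pancreatic cancer line, placed in the tail of the pancreas beside titanium markers for aiming the beam. Combination mice received 4 fractions of 6 Gy on days 6 to 9 after implantation and, on day 10, 2 mg of microspheres holding 0.5 µg of recombinant IL-12 injected into the tumour. Mice given IL-12 alone received the same injection, and mice given SBRT alone the same fractions, each with 3 CD8 libraries. The labels do not say which groups received empty microspheres, give no age, sex or day of harvest, and do not say whether each library came from a separate mouse, so p-values measure the spread between libraries, which may be partly technical. The unirradiated mice share the tumour, the surgery and the sort with the treated mice.

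CD8 T cells kill tumour cells by releasing perforin and granzymes and by secreting interferon gamma. IL-12, normally made by dendritic cells and macrophages, binds a receptor of IL12RB1 and IL12RB2 chains on activated T cells and signals through TYK2, JAK2 and the transcription factor STAT4, which drives interferon gamma and effector genes. An activated CD8 T cell divides quickly and loses the transcription factors and receptors of naive and memory cells, such as TCF1 (gene Tcf7), BACH2 and the IL-7 receptor.

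The cells of SBRT plus IL-12 tumours had higher levels of nearly the whole set of cell division genes, of granzymes A and B, and of a small group of genes that includes Furin, Sulf2, Cetn4 and P2rx7. Genes of naive and memory T cells were lower, among them Bach2 and Tcf7. In the authors' deposited table, of 15115 genes with an adjusted p, 1129 passed a DESeq2 Wald test at a Benjamini-Hochberg adjusted p below 0.05, which is 7.47%, and these are said to be called. Of them 681 rose in the combination (4.51% of those tested) and 448 fell (2.96%). After division of each Wald statistic by the robust spread of all those tested, 211 genes passed, 179 higher and 32 lower.

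The size of the changes was moderate. The median log2 fold change, combination over unirradiated, was 0.61 among genes that rose and -0.57 among genes that fell, against -0.03 over all genes tested. A change of at least 1 on the log2 scale was seen in 58 called genes, 41 higher and 17 lower. The deposited fold changes appear shrunken toward 0, which understates the changes of genes with few reads. Values below are log2 fold changes of the combination over unirradiated, with the adjusted p of the Wald test where shown. The value after ± is an approximate standard error, the fold change divided by its deposited Wald statistic. The fold change appears shrunken and the statistic does not, so this can differ from the standard error of the fit. The tables used here give only a mean normalised level over the CD8 libraries, so no value per library is given, and overlap between the libraries of the groups cannot be seen. Where levels of different genes are compared, they are that mean divided by the length of the gene's exons in kilobases, written as normalised reads per kb. In bulk samples such as these, a change in the number of cells of a type and a change in the RNA per cell cannot be told apart.

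**Figure D1:**
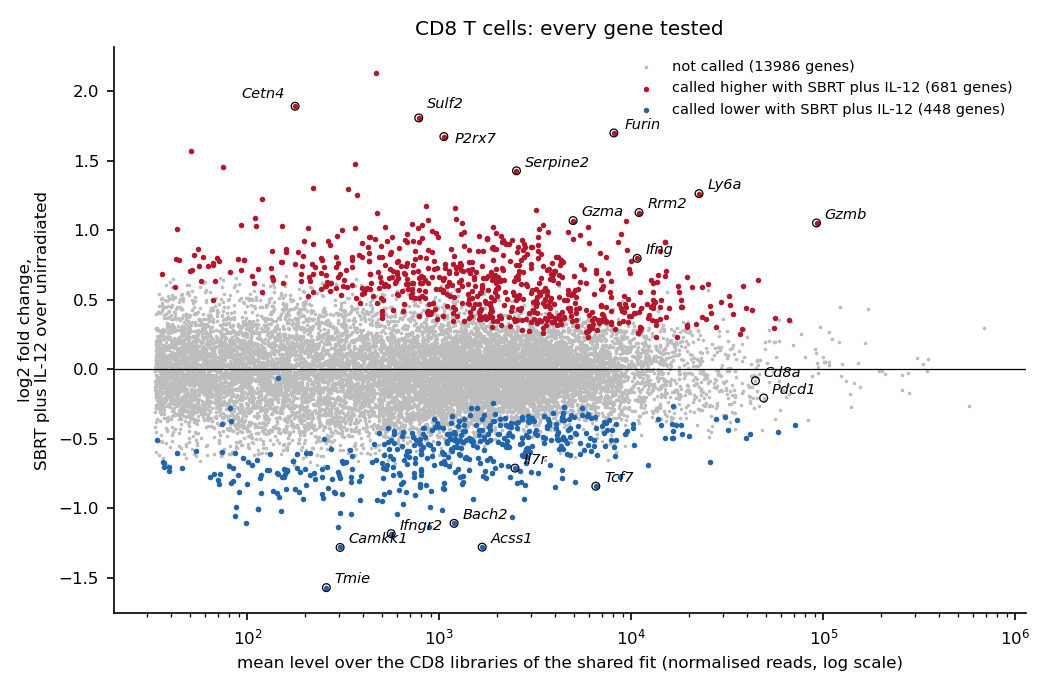
Each point is 1 gene tested in CD8 T cells, with its mean normalised level on a log axis across and its log2 fold change, SBRT plus IL-12 over unirradiated, upward. The 681 genes called higher are red and the 448 called lower are blue, and the highest and lowest lie at 2.13 and -1.57 beside a dense band of uncalled genes around 0.

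T cell genes stood at high levels in the CD8 libraries. Cd8a reached 12168 and Cd8b1 30246 normalised reads per kb, and the T cell receptor constant genes Trac and Trbc2 reached 36943 and 66434. None of the 12 T cell markers was called by DESeq2 in the combination, 0 had an unadjusted p below 0.05, and their median was -0.17. The lists of markers of other cells had lower medians than the T cell markers, whose median was 7806 normalised reads per kb (lowest 1326). Single members overlapped that range, up to 8972 among dendritic cell markers and 6165 among macrophage and monocyte markers. The 14 macrophage and monocyte markers had a median of 463 normalised reads per kb. None of them was called by DESeq2, but 8 had an unadjusted p below 0.05, all lower, and 13 of 14 lay below 0, with a median log2 fold change of -0.45. Of 13 dendritic cell markers 0 were called and 4 had an unadjusted p below 0.05 (median -0.12), and the 9 markers of B and plasma cells included 0 calls and 2 such p-values (median -0.27). Of 5 natural killer cell markers 0 were called and 0 had one (median -0.13). Of 5 endothelial markers Pecam1 (-0.72) and Kdr (-0.60) fell, while 1 of the other three had an unadjusted p below 0.05 on the higher side, and the median was -0.04. Of 4 fibroblast markers Col1a2 (-0.76) fell (median -0.46, highest 0.36), and of 12 acinar and islet markers Gcg (-0.67) fell (median -0.12). Of 5 gamma delta T cell markers the receptor gene Tcrg-C4 (0.74) rose, 2 lay below 0 and the median was 0.15. Of 4 neutrophil, 5 epithelial and tumour cell and 4 erythroid markers 0 were called by DESeq2, with 1, 1 and 0 at an unadjusted p below 0.05. Of 8 CD4 and regulatory T cell markers Il2ra rose, 4 lay below 0 and the median was 0.09. By DESeq2, 3 of the 8 had an unadjusted p below 0.05, 2 higher and 1 lower. Of 7 CD8 T cell markers Gzmk rose, 5 lay below 0 and the median was -0.12. Il2ra and Gzmk are described with the effector genes. The 7 mast cell and basophil markers were all too low to be tested. Of 19 mitochondrially encoded genes tested none was called and 0 had an unadjusted p below 0.05 (median 0.00), and of 16 genes of dissociation stress 1 was called, Ier2, which fell (-0.36). Of those 16 genes 9 had an unadjusted p below 0.05, 7 lower and 2 higher, and their median was -0.18. The part of these markers in the results below was not tested.

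Cell division was the broadest change. Of 48 tested genes of mitosis and chromosome segregation 46 rose in the combination and none fell, with a median of 0.78, beside 4.51% of all genes that rose. Survivin (Birc5) rose by 1.02 ± 0.14 (adjusted p = 4.88e-10) and Aurkb, its partner kinase in the chromosomal passenger complex, by 1.01 ± 0.14. The mitotic kinase gene Cdk1 rose by 0.99 ± 0.14 and its cyclin Ccnb1 by 0.98 ± 0.17. Mki67, the gene of the proliferation antigen Ki-67, rose by 0.86 ± 0.12 (adjusted p = 1.89e-10), and Ndc80, which ties the kinetochore to spindle fibres, by 0.95 ± 0.14. The checkpoint kinases Bub1 (0.96) and Ttk (0.86), the ubiquitin-conjugating enzyme gene Ube2c (0.96) and Plk1 (0.93) rose by similar amounts. Among the genes called, Bub3 had the smallest change (0.33). The 2 members that were not called, Cdc25c at 0.46 ± 0.20 (adjusted p = 0.162) and Cenpa at 0.28 ± 0.11 (adjusted p = 0.126), also lay above 0. With the statistics scaled to their own robust spread 30 of the 48 still passed.

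DNA synthesis genes moved with them. Of 44 tested genes of replication and S phase 39 rose and none fell, with a median of 0.66. The largest change was in Rrm2, the regulated subunit of ribonucleotide reductase, at 1.13 ± 0.14 (adjusted p = 3.63e-12), and its partner Rrm1 rose by 0.78 ± 0.14. Uhrf1, which carries DNA methylation over to new strands, rose by 0.98 ± 0.14, and Cdc45, a part of the replicative helicase, by 0.90 ± 0.13. The helicase ring genes Mcm2 (0.50), Mcm3 (0.56), Mcm4 (0.56), Mcm5 (0.67) and Mcm7 (0.72) all rose, as did the sliding clamp Pcna (0.62). Among regulators of entry into S phase, Ccne1 (cyclin E) rose by 0.67 ± 0.09 with the second smallest adjusted p of the list, 9.38e-12, and E2f1 (0.62), E2f2 (0.92) and E2f8 (0.76) rose too. The uncalled members Pola2 and Gins4 lay at 0.31 ± 0.11 and 0.28 ± 0.10. With the scaled statistics 18 of the 44 passed.

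Histone genes whose transcripts are made for new chromatin followed, with 39 of 59 tested called, all of them higher, and a median of 0.60. The H2A genes Hist1h2an (0.96 ± 0.17), Hist1h2ah (0.94 ± 0.16), Hist1h2ai (0.92 ± 0.13) and Hist1h2ag (0.92 ± 0.16) had the smallest adjusted p-values of the list. Their coding sequences are nearly identical, so reads could be split between copies and the genes do not count as separate observations. Hist1h4d (0.49 ± 0.18) and Hist1h3e (0.40 ± 0.17) were not called. With the scaled statistics 14 of the 59 passed.

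Of 50 DNA repair genes 12 rose and none fell (median 0.30), which is 24.0% called beside 7.47% of all genes tested. Those called included Exo1, the nuclease that resects broken ends (0.98 ± 0.20), Palb2, a scaffold of recombination repair (0.81 ± 0.15), and the helicase gene Blm (0.77 ± 0.17). Fanca (0.54 ± 0.20) and Rpa3 (0.44 ± 0.16) did not pass. With the scaled statistics 4 of the 50 passed.

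Of 32 tested p53 targets 5 rose and 1 fell, which is 18.8% called beside 7.47% of all genes tested, and the median was -0.05. Cdkn1a, the gene of the cell cycle inhibitor p21, rose by 0.94 ± 0.15 (adjusted p = 3.81e-07). Gtse1 (1.08 ± 0.15), Psrc1 (0.85 ± 0.23) and Ckap2 (0.72 ± 0.15), which are also known as genes of dividing cells, rose, and Pmaip1 (0.43), a killer protein of the BCL2 family, rose less. Sesn1, a stress-induced regulator of mTORC1, fell (-0.68). Phlda3 (0.60 ± 0.21, adjusted p = 0.0517) and the long non-coding RNA Pvt1 (-0.36 ± 0.14) did not pass.

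**Figure D2:**
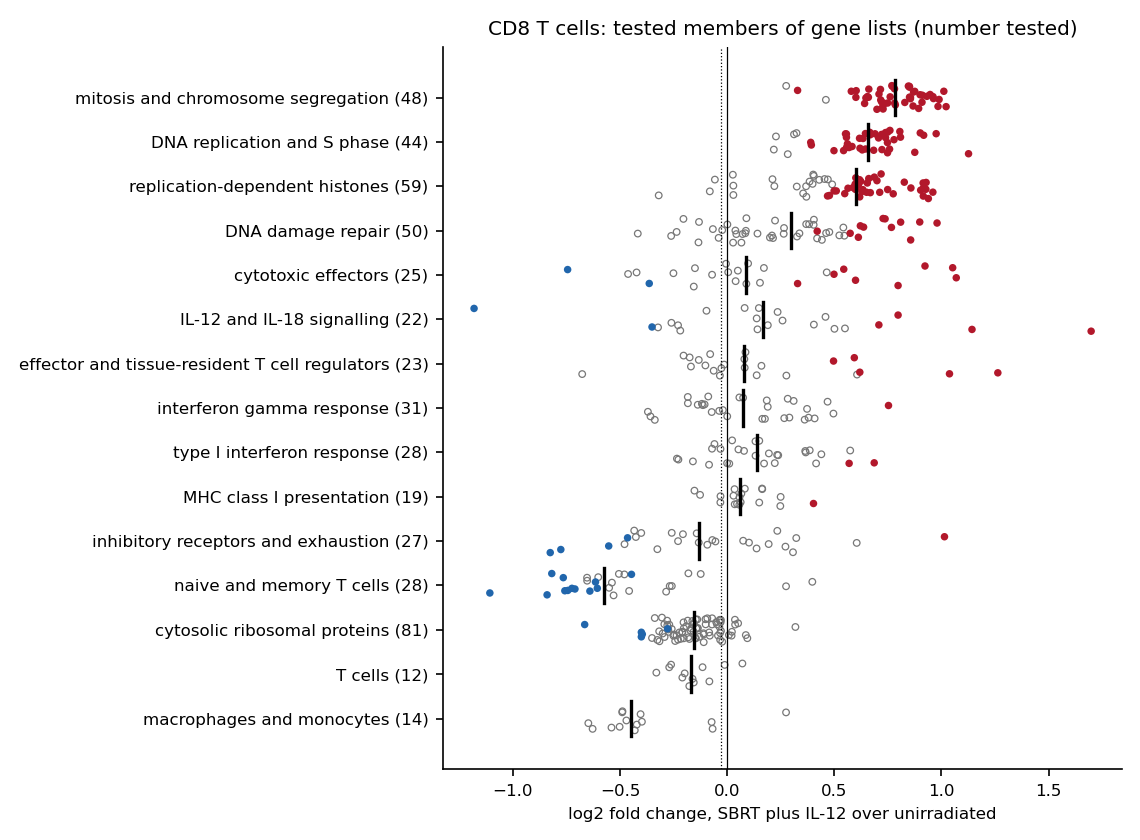
Log2 fold changes of the tested members of 15 gene lists in CD8 T cells, SBRT plus IL-12 over unirradiated; filled points are called genes (red higher, blue lower), open points are not called, black bars are list medians and the dotted line is the median of all genes tested. The mitosis and S phase members lie wholly right of 0, while most members of the naive and memory list lie left of it.

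Promoter sequences of the cell division genes are shown because the 2 sets, which rose together, hold different short motifs. The windows span 250 bases before to 50 bases after the RefSeq gene start in GRCm38.p6, 300 bases each, and the first window per gene was searched on both strands. The motifs were chosen after the list results were known. TTTGAA, the core letters of the cell cycle homology region known from promoters of late cell cycle genes, was found in 31 of 39 mitosis promoters (79.5%), 5 of 35 S phase promoters (14.3%) and 11.9% of the promoters of all genes tested. TTTCCCGC or TTTGGCGC, forms of the site known to bind E2F factors, were found in 1 of 39 mitosis promoters (2.56%), 13 of 35 S phase promoters (37.1%) and 3.22% of all tested. CCAAT, the letters read by the factor NF-Y, stood in 30 of 39 mitosis windows (76.9%), 21 of 35 S phase windows and 39.5% of all tested. Among all called genes, TTTGAA was in 25.8% of 414 windows of genes that rose and 9.57% of 303 windows of genes that fell, and the E2F letters in 11.1% of the first and 0.66% of the second. The spaced pair TTCNNNGAA, in which N is any base and whose letters STAT factors can bind, was in 29 of 414 windows of genes that rose, 16 of 303 of those that fell (5.28%) and 6.87% of all tested. The same pair of triplets with 1 more base between them was in 6.52% of windows of genes that rose, 4.29% of those that fell and 5.24% of all tested. A pair of GAAA runs 2 bases apart, known from interferon-stimulated genes, was in 3.62% of windows of genes that rose, 1.65% of those that fell and 3.30% of all tested. Overlaps between motifs were not removed, and a match is a description of letters, not of binding.

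The windows below are those of the 3 genes with the smallest adjusted p among list members whose window holds TTTGAA (mitosis) or an E2F form (S phase). Capitals mark each match to the late cell cycle motif, to CCAAT or to an E2F form on either strand. A match to the other strand reads as the reverse complement, so that CCAAT then appears as ATTGG.
Mki67 (chr7:135716330-135716629, minus strand): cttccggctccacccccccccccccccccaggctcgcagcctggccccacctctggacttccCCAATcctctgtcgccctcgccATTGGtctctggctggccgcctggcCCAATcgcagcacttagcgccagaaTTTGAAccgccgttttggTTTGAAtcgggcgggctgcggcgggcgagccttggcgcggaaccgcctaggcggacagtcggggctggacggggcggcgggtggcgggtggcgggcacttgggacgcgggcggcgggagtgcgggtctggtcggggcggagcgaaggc
Cdk1 (chr10:69352863-69353162, minus strand): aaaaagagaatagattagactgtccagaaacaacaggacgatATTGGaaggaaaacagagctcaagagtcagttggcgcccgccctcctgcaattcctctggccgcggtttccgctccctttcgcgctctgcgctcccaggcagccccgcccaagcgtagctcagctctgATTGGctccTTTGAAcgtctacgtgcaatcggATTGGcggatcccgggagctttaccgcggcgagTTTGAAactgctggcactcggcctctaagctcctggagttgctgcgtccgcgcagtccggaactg
Ndc80 (chr17:71526808-71527107, minus strand): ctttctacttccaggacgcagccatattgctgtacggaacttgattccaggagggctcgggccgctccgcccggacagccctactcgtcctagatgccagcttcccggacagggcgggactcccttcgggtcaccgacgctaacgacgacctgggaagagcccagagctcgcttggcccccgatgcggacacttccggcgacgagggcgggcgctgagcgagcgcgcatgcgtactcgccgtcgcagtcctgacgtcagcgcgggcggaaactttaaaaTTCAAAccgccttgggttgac
Mcm7 (chr5:138171834-138172133, minus strand): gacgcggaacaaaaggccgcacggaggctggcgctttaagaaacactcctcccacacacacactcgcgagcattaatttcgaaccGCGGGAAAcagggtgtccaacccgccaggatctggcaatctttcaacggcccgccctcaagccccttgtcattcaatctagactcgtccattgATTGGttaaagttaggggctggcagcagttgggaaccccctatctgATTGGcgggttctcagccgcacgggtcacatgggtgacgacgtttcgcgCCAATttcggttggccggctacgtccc
E2f2 (chr4:136172024-136172323, plus strand): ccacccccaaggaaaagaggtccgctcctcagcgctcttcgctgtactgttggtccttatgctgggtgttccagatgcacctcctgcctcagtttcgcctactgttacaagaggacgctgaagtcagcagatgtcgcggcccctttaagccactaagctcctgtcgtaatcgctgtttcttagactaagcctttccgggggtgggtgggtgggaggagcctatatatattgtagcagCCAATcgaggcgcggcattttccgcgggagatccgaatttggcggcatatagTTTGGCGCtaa
Cdc6 (chr11:98907901-98908200, plus strand): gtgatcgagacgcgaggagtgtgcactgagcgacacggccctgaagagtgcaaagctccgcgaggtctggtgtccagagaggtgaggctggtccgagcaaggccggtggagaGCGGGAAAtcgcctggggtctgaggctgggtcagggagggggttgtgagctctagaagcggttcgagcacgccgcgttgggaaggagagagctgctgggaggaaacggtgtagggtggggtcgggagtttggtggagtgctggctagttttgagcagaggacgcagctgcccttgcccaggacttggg
Counted from the gene start, the Cdk1 window holds CCAAT at -208, -80 and -48 and TTTGAA at -71 and -15, and the Mki67 window holds CCAAT at -188, -166 and -141 and TTTGAA at -116 and -98. In both, a TTTGAA follows a CCAAT downstream. Ndc80 holds TTTGAA at 29, after the start. Mcm7 holds TTTCCCGC at -165 and CCAAT at -72, -26 and 23, E2f2 holds CCAAT at -13 and TTTGGCGC at 39, and Cdc6 holds TTTCCCGC at -138. Of the 6 genes, Mki67 (0.86), Cdk1 (0.99) and Ndc80 (0.95) carry the first motif and Mcm7 (0.72), E2f2 (0.92) and Cdc6 (0.88) the second, and their log2 fold changes overlap.

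The effector genes of killing rose in part. Of 25 tested cytotoxic effector genes 8 rose, 2 fell and 15 were not called, with a median of 0.09. That is 40% called beside 7.47% of all genes tested. Gzmb (granzyme B, chr14:56258838-56262260, minus strand) had a mean of 64102 normalised reads per kb and rose by 1.05 ± 0.16 (adjusted p = 4.46e-08), a fold change of 2.07. Gzma (granzyme A) rose by 1.07 ± 0.21 (adjusted p = 5.39e-05) and had a mean of 4940 normalised reads per kb. Gzmf (0.92 ± 0.24) and Gzmk (0.54 ± 0.19) rose, while Gzmc (0.46 ± 0.22, adjusted p = 0.212) did not pass. The pore-forming perforin gene Prf1 rose by 0.60 ± 0.18 (adjusted p = 0.0191), and Ifng by 0.80 ± 0.21 (adjusted p = 0.00384). Serpinb9 (0.50), which shields the killer cell from its own granzyme B, and Rab27a (0.33), needed for granule release, rose by less. Crtam, a receptor of activated cytotoxic cells, and Lamp1, a granule membrane protein, fell (-0.74 and -0.36). The other weapons Fasl (0.17 ± 0.17) and Tnf (0.10 ± 0.16) and the transcription factors Tbx21 (0.14 ± 0.16) and Eomes (-0.13 ± 0.13) were not called. With the scaled statistics 2 of the 25 genes passed.

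The IL-12 and IL-18 signalling genes showed a mixed pattern, with 4 of 22 tested higher and 2 lower. The share called was 27.3%, beside 7.47% of all genes tested. Receptor chain gene Il12rb1 rose by 0.71 ± 0.16 (adjusted p = 0.000405), whereas Il12rb2 lay at 0.55 ± 0.20 and did not pass (adjusted p = 0.0640). Il12rb2 overlaps Serbp1 on the opposite strand, which rose by 0.23. Stat4, the transcription factor of the pathway, fell by a small amount, -0.35 ± 0.10 (adjusted p = 0.00677), and the kinase gene Tyk2 was at -0.32 ± 0.13 (adjusted p = 0.117). The IL-18 receptor genes Il18r1 (0.26 ± 0.16) and Il18rap (0.08 ± 0.17) were not called. The targets Furin and Gadd45g rose strongly. Furin encodes the convertase that cuts proproteins such as that of TGF beta, and it lies at chr7:80388585-80405436 on the minus strand. It rose by 1.70 ± 0.18 (adjusted p = 1.92e-17), a fold change of 3.25. Gadd45g, known to raise interferon gamma production in T cells, rose by 1.14 ± 0.15 (adjusted p = 1.32e-10). Ifngr2, the signalling chain of the interferon gamma receptor, fell (-1.18 ± 0.24, adjusted p = 4.79e-05) and was the fourth lowest of all called genes.

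The highest changes of all were in genes outside the cell cycle. The highest was a clone name with no symbol, RP23-137A24.6, at 2.13 ± 0.22. Cetn4, a centrin of the centriole and cilium base at chr3:37307749-37312708 (minus strand), rose by 1.89 ± 0.19 (adjusted p = 1.51e-19), at a mean level of 177 normalised reads. Cetn4 overlaps Bbs12 on the other strand, which was at 0.29 and not called. Sulf2, an extracellular enzyme that trims sulfate from heparan sulfate, at chr2:166073089-166155663 (minus strand), rose by 1.81 ± 0.24 (adjusted p = 4.67e-11). It overlaps Ncoa3 on the other strand, which was at -0.15 and not called. P2rx7, the ATP-gated ion channel at chr5:122643911-122691432 (plus strand), rose by 1.67 ± 0.22 (adjusted p = 1.09e-11). P2rx3, of the same channel family, was at 1.57 ± 0.25. Its gene span overlaps the far more abundant and also higher Ssrp1 (log2 fold change 0.70) on the opposite strand. The library kit does not mark strand, so reads of the pair could be mixed, and whether their exons overlap was not examined.

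Receptors and surface proteins followed. Ly6a (Sca-1), a surface protein of activated T cells at chr15:74994877-74998031 (minus strand), had the smallest adjusted p of all genes, 5.41e-25, with a change of 1.26 ± 0.11 at 18673 normalised reads per kb. Il1rl1, the IL-33 receptor ST2, rose by 1.47 ± 0.22, and Il2ra (CD25), the high-affinity chain of the IL-2 receptor, by 1.04 ± 0.18 (adjusted p = 1.85e-06). Serpine2, an inhibitor of thrombin and related proteases, at chr1:79794197-79861180 (minus strand), rose by 1.43 ± 0.18 (adjusted p = 2.24e-12). Ano7 (1.46 ± 0.20), an anoctamin, Prnp (1.25 ± 0.24), the prion protein gene, Rasd2 (1.22 ± 0.24), a small GTPase, and Fam20a (1.18 ± 0.22), a partner of a secretory pathway kinase, were also among the highest, with Dmwd (1.30 ± 0.22) and the clone name RP24-264B23.2 (1.30 ± 0.21). Other regulators of effector cells that rose were Klrg1 (0.62), a receptor of terminal effectors, Id2 (0.59) and Prdm1 (0.50), which encodes BLIMP1. With Ly6a and Il2ra they made 5 of 23 on that list, with none called lower. That is 21.7% called beside 7.47% of all genes tested. The list median was 0.08, with 12 members above 0 and 11 below, and 3 of the 23 passed with the scaled statistics. Batf3 (0.61 ± 0.23) and Itgae (-0.68 ± 0.23), the CD103 integrin gene, did not pass.

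Genes of naive and memory T cells were lower. Of 28 tested 12 fell, beside 2.96% of all genes tested, and none rose, with a median of -0.58. Bach2, which holds T cells back from effector fate, fell (-1.11 ± 0.21, adjusted p = 9.46e-06). Tcf7 fell (-0.84 ± 0.25, adjusted p = 0.0139) and the IL-7 receptor gene Il7r fell (-0.71 ± 0.22, adjusted p = 0.0224). S1pr1, the receptor that guides T cells out of tissue, fell (-0.82), as did Actn1 (-0.77), Foxp1 (-0.61), a factor of quiescence, and Cd27 (-0.45). Ccr7 (-0.60 ± 0.24, adjusted p = 0.108) and Klf3 (-0.65 ± 0.23, adjusted p = 0.0501) had changes of like size but did not pass. The list depends on the threshold: at an adjusted p below 0.01 the count of genes that fell was 3, and with the scaled statistics 1.

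Of 27 tested genes of inhibitory receptors and exhaustion 4 fell and 1 rose, which is 18.5% called beside 7.47% of all genes tested. Cd200 (-0.83 ± 0.16), Nr4a3 (-0.78 ± 0.16), a factor induced by the T cell receptor, Tigit (-0.55 ± 0.15) and Nfatc1 (-0.47 ± 0.16) fell, and Il10 rose by 1.01 ± 0.23 (adjusted p = 0.000400). The best-known checkpoint genes did not pass: Pdcd1 (PD-1) lay at -0.21 ± 0.16, Havcr2 (TIM-3) at 0.23 ± 0.17, Lag3 at 0.07 ± 0.19, Ctla4 at 0.27 ± 0.15 and Tox at -0.40 ± 0.19. Pdcd1 was abundant at 25311 normalised reads per kb. Of 30 T cell receptor signalling genes 2 fell, the phosphatase gene Ptpn6 (-0.49) and the activation factor Egr2 (-0.53), and none rose. That is 6.67% called, near the 7.47% of all genes tested. Of 21 costimulatory genes Tnfsf4 (OX40 ligand) rose (0.50), and Cd27 and Tnfsf14 (LIGHT, -0.81) fell, which is 14.3% called.

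Among 27 tested chemokine and receptor genes 1 rose and 3 fell, which is 14.8% called beside 7.47% of all genes tested. Xcl1 (-0.85 ± 0.21), which attracts cross-presenting dendritic cells, Cxcl1 (-0.81 ± 0.23) and Cxcr5 (-0.72 ± 0.25) fell. Cxcr5 overlaps Bcl9l on the opposite strand, which also fell (-0.61). Besides Il10, the cytokine genes Csf1 (0.71 ± 0.23) and Csf2 (0.64 ± 0.22) rose and Il16 (-0.42 ± 0.12) fell, among 17 tested (23.5% called). Among 20 killer lectin-like receptor genes Klrg1 rose and Klrd1 (-0.40 ± 0.13), the CD94 chain, fell (10% called).

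The lowest of all called genes was Tmie (-1.57 ± 0.22), a protein known from inner ear hair cells. Tmie overlaps Als2cl on the opposite strand, which also fell (-0.78), so reads of the pair could be mixed. Whether their exons overlap was not examined. Camkk1, a calcium-dependent kinase at chr11:73019008-73042073 (plus strand), fell (-1.28 ± 0.21, adjusted p = 2.14e-07), and Acss1, which makes acetyl-CoA from acetate in mitochondria, at chr2:150618105-150668500 (minus strand), fell (-1.28 ± 0.15, adjusted p = 4.24e-13). Matk, a kinase that restrains SRC family kinases, fell (-1.06 ± 0.18, adjusted p = 1.91e-06). The other low genes were the clone name RP24-235B15.4 (-1.13), Nckap5l (-1.13), Wbscr27 (-1.10), Dand5 (-1.06), a secreted antagonist of nodal, Ramp1 (-1.04), a subunit of the receptor for the nerve peptide CGRP, Aff3 (-1.04), Rab6b (-1.03), Mrc2 (-1.02), a collagen uptake receptor, and Ephx1 (-1.01), an epoxide hydrolase.

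Beside the 7.47% of all genes tested that were called, the share was 3.23% for interferon gamma response genes, 7.14% for type I interferon genes and 5.26% for MHC class I presentation genes. Of 31 tested genes of the interferon gamma response only Gbp3 was called higher, by 0.75 ± 0.12 (adjusted p = 4.62e-08), and the median was 0.07. By DESeq2, 9 of the 31 had an unadjusted p below 0.05, all higher. Gbp5 lay at 0.38 ± 0.15 and Gbp6 at 0.37 ± 0.14, both uncalled. Of 28 type I interferon genes Trim30a (0.69 ± 0.18) and the nucleic acid sensor Zbp1 (0.57 ± 0.14) rose, and of 19 MHC class I genes the peptide loading factor Pdia3 (0.40 ± 0.11) rose. At an unadjusted DESeq2 p below 0.05 there were 6 type I and 3 MHC class I genes, all higher. The share called was 11.8% for glycolysis and hypoxia genes, 6.49% for nuclear genes of oxidative phosphorylation and 6.17% for ribosomal protein genes, beside the same 7.47%. Of 34 glycolysis and hypoxia genes Ndrg1 (0.52), hexokinase 2 gene Hk2 (0.47) and Pgk1 (0.37) rose and the mitophagy receptor gene Bnip3l (-0.35) fell. Of 77 nuclear genes of oxidative phosphorylation 5 rose, among them Cox5a (0.44), and none fell. Of 81 cytosolic ribosomal protein genes 5 fell, among them Rps27 (-0.67 ± 0.16), and none rose, with a median of -0.16. Slc7a5 (0.48), a transporter of large amino acids, was the only called gene of 30 on the MYC and amino acid transport list, and of 26 sterol and fatty acid synthesis genes 0 were called by DESeq2 and 2 had an unadjusted p below 0.05.

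The single treatments changed fewer genes, measured against the same unirradiated libraries. With IL-12 alone 349 of 13876 genes were called (2.52%), 205 higher (1.48%) and 144 lower (1.04%). With SBRT alone 77 of 16359 were called (0.471%), 50 higher (0.306%) and 27 lower (0.165%). Because the comparisons share their control libraries, the values are given side by side. Mitosis genes rose for 46 of 48 with the combination, 29 of 48 with IL-12 alone and 1 of 48 with SBRT alone, with medians of 0.78, 0.55 and 0.25. In the same order, S phase genes rose for 39, 11 and 5 of 44, with medians of 0.66, 0.36 and 0.32. Of 28 naive and memory genes 12, 3 and 1 fell, with medians of -0.58, -0.53 and -0.45.

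Furin rose by 1.70 ± 0.18 with the combination, by 1.30 ± 0.18 with IL-12 alone (adjusted p = 2.31e-09) and stood at 0.03 ± 0.18 with SBRT alone (adjusted p = 0.970). Cetn4 had the same order, 1.89, 1.22 and -0.06, as did Sulf2 at 1.81, 1.16 and -0.30 and P2rx7 at 1.67, 1.12 and 0.27, in the order combination, IL-12, SBRT. Ly6a rose under all 3 treatments, by 1.26, 1.17 and 0.46. Gzmb rose by 1.05 with the combination and 0.59 with IL-12 (adjusted p = 0.0203), and stood at 0.52 with SBRT (adjusted p = 0.125). Cdkn1a was called with the combination (0.94) and with SBRT (0.59, adjusted p = 0.0323) but not with IL-12 (0.40, adjusted p = 0.147). Il7r fell under all 3, at -0.71, -0.90 and -0.86, and so did Acss1, at -1.28, -0.99 and -0.69.

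**Figure D3:**
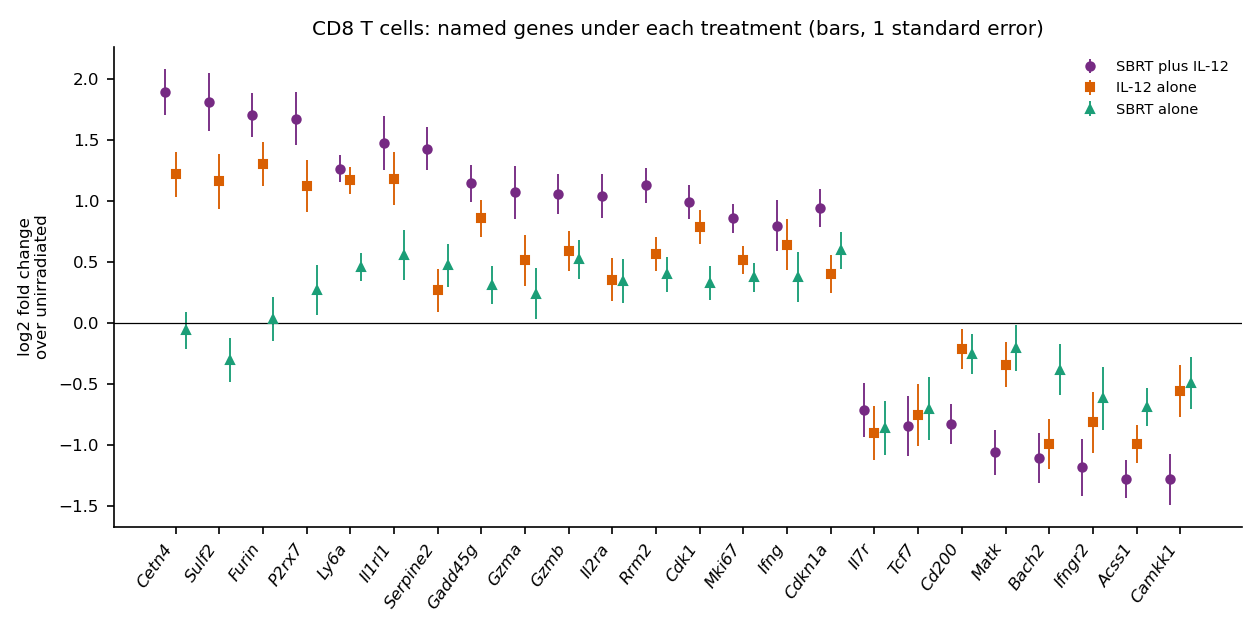
Log2 fold changes over unirradiated CD8 T cells (upward) for 24 named genes, with SBRT plus IL-12 as circles, IL-12 alone as squares and SBRT alone as triangles. Bars span 1 approximate standard error, the fold change divided by its Wald statistic. Cetn4, Sulf2 and Furin stand above 1 with the combination and with IL-12 and at -0.06, -0.30 and 0.03 with SBRT, while Serpine2 stands at 1.43 with the combination, 0.27 with IL-12 and 0.47 with SBRT.

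The differences themselves were tested gene by gene. The test took the difference of the 2 Wald statistics as a normal score, which holds where the shared controls cancel. The difference is given as that score times the mean of the approximate standard errors. It can therefore depart from the plain gap between shrunken fold changes. Of 33127 genes 461 differed between the combination and SBRT alone (1.39%), 232 higher (0.7%) and 229 lower (0.691%) in the combination. If the variances are instead added as if the controls were not shared, 25 differed. With genes at a mean level of at least 50 only, 666 differed. The 1.39%, like the shares against IL-12 and from the sum below, is over all genes with a p, including those with few reads. The tested mitosis and S phase genes all stood at a level of at least 50, so the shares are not like for like. In the combination 24 of 48 mitosis genes, 21 of 61 histone genes and 7 of 44 S phase genes were higher. The median difference was 0.51 over the mitosis list and 0.00 over all genes. At a mean level of at least 50, the highest differences were in Sulf2 (1.92 ± 0.21, adjusted p = 1.64e-16), Cetn4 (1.76 ± 0.17, adjusted p = 1.04e-20), Furin (1.66 ± 0.18, adjusted p = 1.69e-16) and P2rx3, whose gene span overlaps Ssrp1. RP23-137A24.6 was next (1.47 ± 0.17). The lowest were the IL-11 receptor genes Il11ra2 (-1.40 ± 0.22) and Il11ra1 (-1.11 ± 0.21), which are near copies of each other, Tnfsf14 (-1.16 ± 0.21), Igsf6 (-1.10 ± 0.21) and Stab1 (-1.02 ± 0.23), the last known from macrophages. Stab1 and Il11ra1 were not called against unirradiated cells. Stab1 overlaps Nt5dc2 on the opposite strand, which rose (0.56). Beside them, 4 of 14 macrophage and monocyte markers were lower in the combination than with SBRT alone, with a median difference of -0.69 over the list, and the part of those cells in the differences was not tested.

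Against IL-12 alone, 53 genes differed (0.16%), 28 higher (0.0845%) and 25 lower (0.0755%) in the combination, and 1 with the variances added as if independent. At a mean level of at least 50 Serpine2 was highest at 1.15 ± 0.18 (adjusted p = 1.27e-06). Next came the recombination helicase gene Mcm8 (0.90 ± 0.21, adjusted p = 0.0151), the Holliday junction nuclease gene Gen1 (0.83 ± 0.21, adjusted p = 0.0464) and the clamp loader gene Chtf18 (0.79 ± 0.20, adjusted p = 0.0395), with the clone name RP23-391I11.8 (0.82 ± 0.20). Rrm2 was the 1 S phase list member of 44 that differed, and 5 of 61 histone genes did, all of the H3 kind. Of 48 mitosis genes 0 differed by this test and 16 had an unadjusted p below 0.05, all higher, with a median difference of 0.25 over the list and 0.00 over all genes. The lowest differences were in Dand5 (-1.01 ± 0.23, adjusted p = 0.0151), Il11ra2 (-0.87 ± 0.21), the clone name RP23-298B23.1 (-0.76 ± 0.18), Stk11 (-0.74 ± 0.14, adjusted p = 0.00231), which encodes the kinase LKB1, and Idua (-0.72 ± 0.16), a lysosomal enzyme. Idua and Stk11 overlap Dgkq and Cbarp on the opposite strand, neither of which was called.

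Departure of the combination from the sum of the single effects was found for 14 genes (0.0423%), 8 above (0.0241%) and 6 below the sum (0.0181%), and for 1 with independent variances. Mcm9, a helicase of DNA repair, fell under each treatment, at -0.42, -0.66 and -0.60 (combination, IL-12, SBRT), which gives a departure of 0.83 ± 0.17 (adjusted p = 0.0106). Mcm9 overlaps Asf1a on the opposite strand, which was at 0.05 with the combination and not called. Below the sum stood Il11ra2 (-1.47 ± 0.31) and Prss2 (-1.43 ± 0.29), a trypsinogen gene of pancreatic acinar cells that rose with SBRT alone (1.09, adjusted p = 0.00675) and stood at 0.05 with the combination. The 16 acinar and islet markers had a median departure of -0.53, 12 of them with an unadjusted p below 0.05, all below the sum, and the part of such cells in these departures was not tested. Of the mitosis, S phase and cytotoxic lists 0 members departed from the sum by the adjusted test, with 2, 2 and 2 at an unadjusted p below 0.05. Of 61 histone genes 0 passed the adjusted test, but 16 had an unadjusted p below 0.05, all above the sum, with a median departure of 0.23. Of 78 nuclear genes of oxidative phosphorylation 0 passed and 12 had such a p, all below the sum, with a median departure of -0.15. Over all 33127 genes 1518 had an unadjusted p below 0.05 and the median departure was 0.00.

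The same treatment was measured in inflammatory monocytes and tumour-associated macrophages, so the CD8 response could be set against theirs. The labels do not say whether the populations were sorted from the same tumours, and the test of the difference treats their fold changes as independent. It also uses the approximate standard errors, so its adjusted p-values are approximate too. Inflammatory monocytes (CD45+CD11b+Ly6C+Ly6G-) had 3 combination and 3 unirradiated libraries, and macrophages (F4/80+ with moderate Ly6C) 2 and 2. Among genes with a level of at least 50 in both populations, 557 of 12348 changes differed between CD8 cells and monocytes (4.51%), 227 higher (1.84%) and 330 lower (2.67%) in CD8, and 717 of 12438 between CD8 cells and macrophages (5.76%), 449 higher (3.61%) and 268 lower (2.15%). Against unirradiated cells of their own kind, 6.72% of genes tested were called in monocytes (3.69% higher and 3.03% lower) and 4.21% in macrophages (2.24% higher and 1.97% lower). Cell division genes differed most broadly between CD8 cells and macrophages among the lists compared. Mitosis genes had medians of 0.78 in CD8 cells and -0.72 in macrophages, where 18 of 48 fell, and 45 of the 47 compared were higher in CD8 cells. S phase genes had medians of 0.66 in CD8 cells and -0.68 in macrophages, and 39 of 44 were higher in CD8 cells. Bub1 is an example, 0.96 in CD8 cells and -1.26 in macrophages, a difference of 2.22 ± 0.29 (adjusted p = 4.31e-11). In monocytes the mitosis and S phase medians were 0.20 and 0.34. There 1 of 48 mitosis genes and 9 of 44 S phase genes rose and none fell, beside 3.69% of all genes that rose. Among those compared, 10 of 43 mitosis genes and 3 of 43 S phase genes were higher in CD8 cells than in monocytes.

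For interferon genes the CD8 cells had the lowest medians among the populations. The interferon gamma response list had 1 of 31 called in CD8 cells, 23 of 32 in monocytes and 19 of 32 in macrophages, all higher, with medians of 0.07 in CD8 cells, 0.72 in monocytes and 0.64 in macrophages. Of 31 compared, 14 were lower in CD8 cells than in monocytes and 7 lower than in macrophages. MHC class I genes had medians of 0.06 in CD8 cells, 0.64 in monocytes and 0.39 in macrophages, and 13 of 19 were lower in CD8 cells than in monocytes. Of p53 targets 5 of 32 rose in CD8 cells and 17 of 33 in macrophages (medians -0.05 and 0.59), and 13 of 30 were lower in CD8 cells, with Phlda3 at 0.60 in CD8 cells and 3.31 in macrophages. Ly6a rose by 1.26 in CD8 cells, 1.94 in monocytes and 0.89 in macrophages. Sulf2 rose by 1.81 in CD8 cells and fell in monocytes (-1.01), a difference of 2.82 ± 0.31 (adjusted p = 1.03e-15), and P2rx7 was at 1.67 in CD8 cells and -0.12 in monocytes, a difference of 1.79 ± 0.25 (adjusted p = 5.83e-10).

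**Figure D4:**
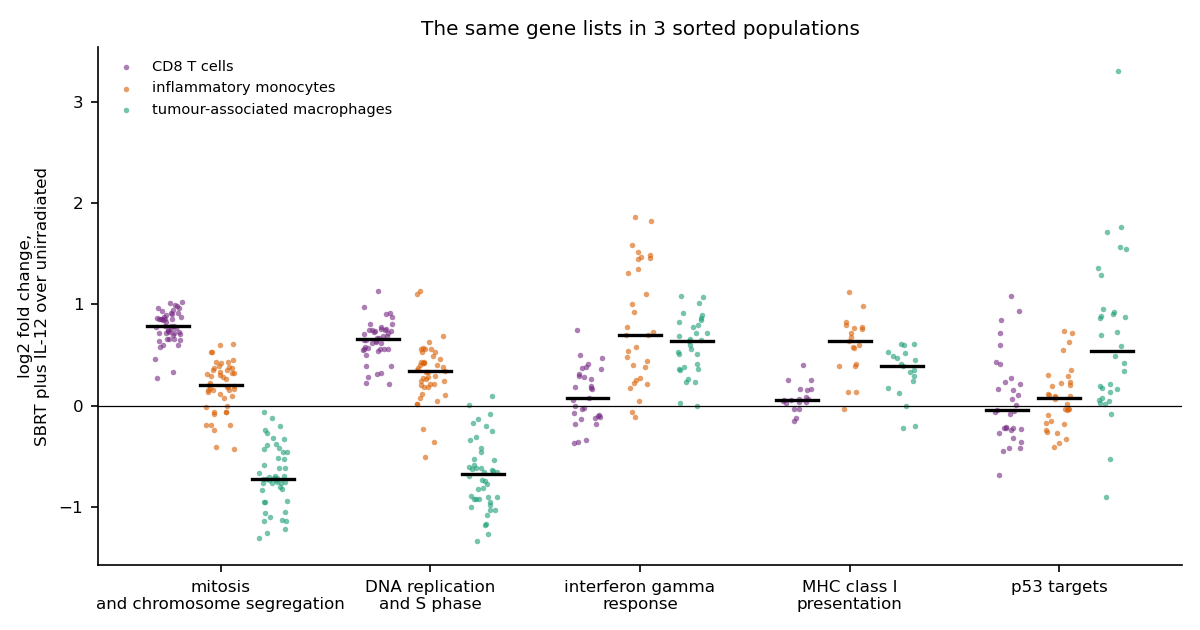
Log2 fold changes, SBRT plus IL-12 over unirradiated, of the list members tested in CD8 T cells, shown for CD8 T cells, inflammatory monocytes and tumour-associated macrophages (left to right in each list), with black bars for medians. Mitosis and S phase genes lie above 0 in CD8 cells and mostly below 0 in macrophages, while interferon gamma and MHC class I genes lie near 0 in CD8 cells and above it in the other populations.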

How the data were processed

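RNA was sequenced from CD8 T cells (CD45+CD8+), inflammatory monocytes and tumour-associated macrophages sorted from dissociated tumours, with integrity values above 5 and a kit that does not mark strand, per the labels' protocols. Build GRCm38 is named in the submitters' processing notes, with no role for each tool: STAR 2.6.0c, Salmon, featureCounts, Subread, FastQC 0.11.8 and Trimmomatic 0.36. The authors deposited 9 DESeq2 tables, each setting 1 treatment against unirradiated cells of the same kind; the DESeq2 version and design formula are not given in the sources used here. Per the file headers the first value is a mean normalised signal over libraries, identical in the 3 CD8 tables. The deposited log2 fold changes are treated over unirradiated. They appear shrunken, since for 594 gene names their sign differs from that of the statistic. The authors also deposited a Wald score per gene, whose 2-sided normal probability equals the deposited p-value. The deposited adjusted p-value covers 15115 of 33127 genes with a p, with a lowest mean level of 33.1. Depth per library is unknown, so no interval that needs it is given. The median standard error of called genes was 0.155, with 0.225 over genes at levels of 50 to 300 and 0.127 at 3000 or more.

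Calls used the deposited adjusted p below 0.05. Standard errors are the fold change over its statistic, and are approximate because only the fold change appears shrunken. The 594 gene names whose fold change and statistic differ in sign include 0 called genes. Differences between treatments were computed from the Wald statistics and their shared standard error without the variance of the shared controls, the departure from additivity with 2 times the variance of a single effect, and differences between populations from independent fold changes, each with a 2-sided normal test and Benjamini-Hochberg adjustment. The difference tests were checked on simulated data. Those data had the normal errors and shared controls that the tests assume, so the assumptions themselves were not checked. Named genes were the 15 highest and 15 lowest called at a level of at least 50 (no predicted genes, pseudogenes or receptor segments), a panel of 30 genes, up to 4 called and 2 uncalled members per list by smallest p, and 5 each way per difference; other list members were named after their values were seen, and a few genes are not reported here. The 40 lists, the panel and the comparison itself were chosen with earlier results of these data known. Alternatives were another adjustment, level and threshold, a recentred scale, statistics divided by their robust spread, and other variances. Positions and exon lengths came from GENCODE M21 (GRCm38), which held 988 of the 1129 called names (87.5%); 122 called names are clone identifiers. Python 3.11.15, pandas 2.3.3, numpy 2.4.6, scipy 1.17.1 and matplotlib 3.10.9 were used.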

Additional observations from a re-analysis of the deposited data

Results flagged for a closer look

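The following responses to the combination differed by a test of the difference itself, a 2-sided normal test with Benjamini-Hochberg adjustment, and are given as differences of log2 fold changes. Their causes were not tested.

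Departure from the sum of the single treatments was positive in CD8 T cells for the clone name RP23-317N1.2 (1.57), Mmachc (1.41), a cobalamin-processing enzyme gene, Mcm9 (0.83), Camk4 (0.65), a calcium-dependent kinase gene, and Zfp143 (0.64), a zinc finger gene. It was negative for Il11ra2 (-1.47), Prss2 (-1.43), Ppp1r37 (-0.84), Xlr4a (-0.63) and Xlr4b (-0.62). The last pair are near copies of each other, as are Il11ra2 and Il11ra1, so reads could be split between copies.

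Between CD8 T cells and inflammatory monocytes, the response was higher in CD8 cells for Sulf2 (2.82), Cetn4 (2.05), Cd209a (1.93), P2rx7 (1.79) and RP23-137A24.6 (1.79). Cd209a, a lectin gene of monocyte-derived dendritic cells, did not rise in CD8 cells. There it stood at -0.38 and was not called, at a mean level of 53.8. The response was lower in CD8 cells for Pacsin1 (-1.98), Nos2 (-1.96), the inducible nitric oxide synthase gene, the clone names RP23-14F5.7 (-1.93) and RP23-357I14.1 (-1.88), and Selm (-1.87). Among the genes followed across treatments, the response was higher in CD8 cells than in monocytes for Gzma (1.35), Gzmb (1.08) and the p53 target Cdkn1a (0.98). The difference was also positive for Stat4 (1.15), which fell less in CD8 cells (-0.35) than in monocytes (-1.50). It was negative for Il12rb1 (-1.33), which rose less in CD8 cells (0.71) than in monocytes (2.03), and for Ccr7 (-1.11) and Il7r (-1.27).

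Between CD8 T cells and tumour-associated macrophages, the response was higher in CD8 cells for the division genes Kntc1 (2.40), Pclaf (2.29), Bub1 (2.22), Shcbp1 (2.22) and Mki67 (1.13), and for Sorbs3 (2.25). Sorbs3 stood at 0.65 in CD8 cells and was not called there, at a mean level of 71.6. The response was lower in CD8 cells for the p53 targets Phlda3 (-2.71) and Trp53inp1 (-1.99), and for Ephx1 (-2.54) and Camkk1 (-1.79).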

How the results depend on the processing

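No paired analysis was possible because the tables give no value per library, and for the same reason no replicate could be left out. Of the 1129 calls for the combination (681 higher, 448 lower), 595 passed at 0.01 (406 higher, 189 lower), 211 with the statistic divided by its robust spread of 1.40 (179 higher, 32 lower) and 58 at a log2 fold change of at least 1 (41 higher, 17 lower). Counts were 851 when adjusted over all genes with a p (535 higher, 316 lower), 1148 at a level of at least 50 (691 higher, 457 lower) and 1129 with recentred fold changes (783 higher, 346 lower), with 813, 1116 and 1027 of the calls shared. With variances added as if independent, the difference from IL-12 gave 1 gene (0 higher, 1 lower), that from SBRT 25 (22 higher, 3 lower) and the departure from additivity 1 (0 higher, 1 lower). With the robust spread, which is below 1 for these 3, they gave 808 (426 higher, 382 lower), 1139 (544 higher, 595 lower) and 437 (186 higher, 251 lower). With each table's own standard errors, 11 genes lay below additivity, against 6. The robust spread left 107 differences from monocytes (35 higher, 72 lower) and 176 from macrophages (146 higher, 30 lower). Of the 228 named genes 0 changed direction under these settings; 65 had an adjusted p that no longer passed with the robust spread, 31 at 0.01 and 7 when recentred. Cause was not tested. Genes with few reads are the least precise: 2.89% were called at levels up to 200, against 11.3% at 5000 or more.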

Other observations

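Some called genes outside the lists, chosen after their values were seen, are given here as DESeq2 log2 fold changes from the authors' deposited table, combination over unirradiated. Both receptors for the nerve peptide VIP fell, Vipr1 (-0.90 ± 0.24, adjusted p = 0.00543) and Vipr2 (-0.94 ± 0.20, adjusted p = 0.000234), as did Ramp1 (-1.04 ± 0.24) of the CGRP receptor. The cannabinoid receptor gene Cnr2 (-0.92 ± 0.24) and the orphan receptor gene Gpr35 (-0.88 ± 0.22) fell too, while the leukotriene receptor gene Cysltr2 rose (0.89 ± 0.14, adjusted p = 1.38e-07). Ypel3 fell with a small error (-0.81 ± 0.10, adjusted p = 9.88e-12).

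Fes, a tyrosine kinase gene at chr7:80377756-80387946, lies beside Furin at chr7:80388585-80405436 in GRCm38, and both rose, Fes by 1.05 ± 0.17 (adjusted p = 3.95e-07) and Furin by 1.70 ± 0.18. Reads that run past the end of a gene were not examined. Other genes that rose were Prdx4 (1.12 ± 0.19), an antioxidant enzyme gene of the endoplasmic reticulum, Lrp8 (1.07 ± 0.18), a lipoprotein receptor gene, and Hhat (1.09 ± 0.23), which encodes the enzyme that attaches palmitate to hedgehog proteins.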
